A study of Homo sapiens with 6 samples.

Results

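The genes of the extrinsic death pathway examined here were 10 of the 58336 genes in the deposited count table, chosen by name: the death receptors *FAS*, *TNFRSF10A*, *TNFRSF10B* and *TNFRSF1A*, the decoy receptors *TNFRSF10C* and *TNFRSF10D*, the ligands *TNFSF10* and *FASLG*, the adaptor *FADD* and the inhibitor *CFLAR*. RNA was sequenced from A2780 cells, a human ovarian cancer line, grown with DMSO vehicle or with 6 µM TH588 for 48 h. TH588 is a small molecule that inhibits the nucleotide pool enzyme MTH1 and also stalls cells in mitosis. There were 3 DMSO and 3 TH588 libraries (A, B and C of each), described as separate experiments on 1 line at 1 dose and 1 time.

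Death receptors are members of the TNF receptor superfamily whose cytoplasmic death domain binds adaptor proteins once a ligand has clustered the receptor. FADD links FAS and the TRAIL receptors to caspase-8, and cFLIP, the product of *CFLAR*, competes with caspase-8 in that complex. Decoy receptors bind TRAIL but lack a working death domain, and several genes of this pathway, *FAS* and *TNFRSF10B* among them, are known targets of p53.

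Total counts ranged from 77634048 to 99074175 in 5 libraries and were 28537837 in TH588 replicate A. In that library the small nucleolar RNA *SNORD3A* took 21.94% of all counts, against 7.681% to 12.95% in the others. Levels are given as TMM-scaled CPM (counts scaled to a common library size), with mean ± SD over 3 libraries, and each gene was tested between the groups by edgeR's quasi-likelihood method with Benjamini-Hochberg adjustment over the 15844 genes that passed its filter on low counts. A gene was called at an adjusted p under 0.05. An exact two-sided permutation test of 3 libraries against 3 cannot go below p = 0.1, so single genes rest on the model fitted across all genes. These are bulk RNA values, in which a change in the make-up of the culture and a change of RNA per cell cannot be told apart. Of 8 epithelial and ovarian markers, *KRT7*, *CDH1* and *PAX8* had at most 2 counts in any library, and *EPCAM* rose by 2.88 on the log2 scale (SE 0.22, edgeR adjusted p = 8.23e-07). The summed level of these 8 markers was 3.82 to 4.60 CPM with DMSO and 10.9 to 12.2 CPM with TH588. Most of that sum came from *KRT18*, at a mean of 3.56 CPM with DMSO and 6.54 CPM with TH588, and *EPCAM*, at 0.64 and 4.74 CPM. The part of these markers in the results was not tested.

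Of the 10 death receptor, ligand and adaptor genes, 8 passed the filter, 5 were called higher with TH588 and 0 were called lower. Over all genes tested, 24.2% were called higher and 25.3% lower. With library size as the only scaling, 60.4% of all calls were higher, against 48.9% with TMM. The median over all genes was 0.02 on the log2 scale with TMM and 0.13 with library size only. The count of 5 higher and 0 lower among the death receptor genes held under that scaling too. The libraries of the 2 groups did not overlap for 5 of the 8 genes, where 57.7% of all genes tested had no overlap. The median log2 fold change of the 8 was 0.90. The genes called were *FAS*, *TNFRSF10B*, *TNFRSF10C*, *TNFRSF10D* and *CFLAR*. Those tested and not called were *TNFRSF1A*, *TNFSF10* and *FADD*, and *TNFRSF10A* and *FASLG* were too rare to test.

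**Figure D1:**
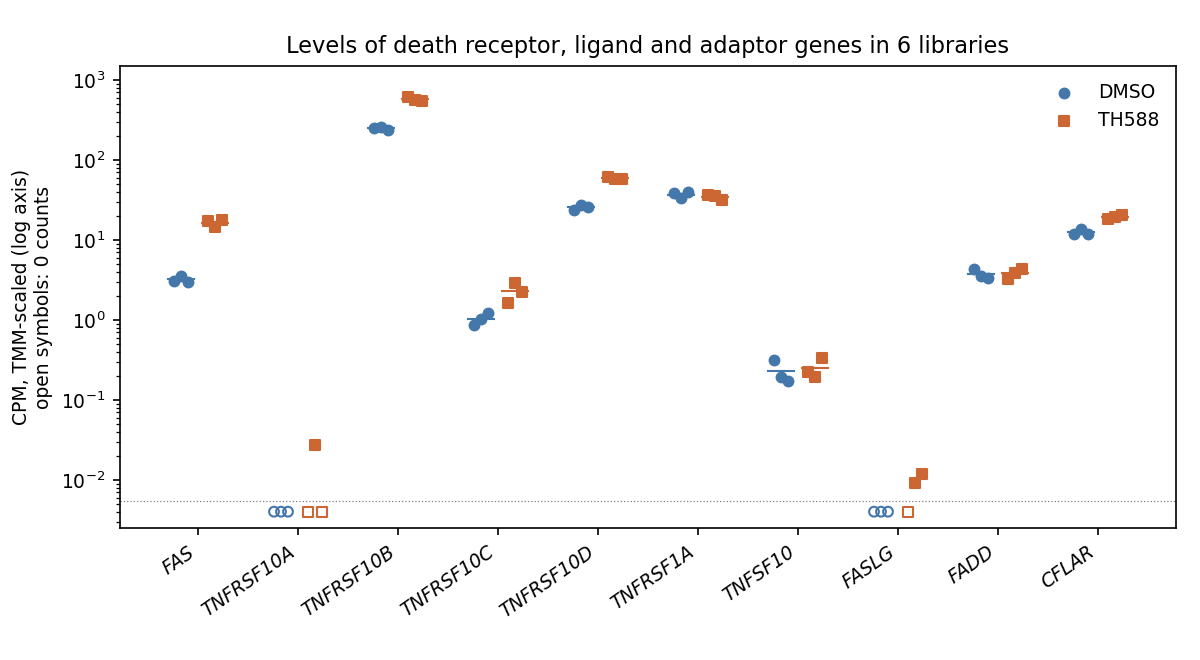
TMM-scaled CPM on a log axis (vertical) of the 10 genes (horizontal) in 3 DMSO and 3 TH588 libraries, each point 1 library and open symbols standing for 0 counts. The TH588 points of *FAS* lie between 14.4 and 17.7 CPM, above the 2.98 to 3.54 CPM with DMSO, while those of *TNFRSF1A* and *FADD* overlap with DMSO.

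*FAS* (ENSG00000026103), the receptor for FAS ligand, lies on the plus strand of chromosome 10 of GRCh38 from 88990582 to 89015785. It is shown with sequence because its rise was the largest of the 8 death receptor, ligand and adaptor genes tested and because it holds one of the p53 motif matches found among them. The motif searched was the p53 consensus element, a pair of decamers side by side with 20 letters in all, on both strands, with the C and G of each core kept and at most 2 mismatches elsewhere. The window ran from 1000 bases before to 2000 bases after each gene start in the table. The match in *FAS* lies at chr10:88991309-88991328 on GRCh38 with 2 mismatches, and the capitals mark the core of each decamer.
FAS p53 motif match: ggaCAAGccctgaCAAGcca
It begins 727 bases after the gene start used in the table, and 511 bases after the start of the canonical GENCODE transcript, in its intron 1. Other *FAS* transcripts have an exon there. Over the genes tested that had a window, 352 of 15828 (2.22%) held at least 1 match. Of these 352 genes, 118 (33.5%) were called higher and 72 (20.5%) lower. A match describes letters in a window and not binding of p53, which was not measured here.

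With DMSO the level of *FAS* was 3.10, 3.54 and 2.98 CPM in replicates A, B and C, and with TH588 it was 17.1, 14.4 and 17.7 CPM. Every TH588 library was thus several times above every DMSO library. The mean rose from 3.21 ± 0.29 to 16.4 ± 1.78 CPM (SD, n = 3 per group), which is a log2 fold change of 2.35 (SE 0.13, 95% interval 2.06 to 2.64, edgeR adjusted p = 8.68e-08), or 5.10-fold. Among the genes tested, 98.2% had a smaller rise and 288 a larger one. *FAS* began as a weakly expressed gene: counted per kb of gene length, 33.9% of genes tested had a lower level with DMSO and 60.2% with TH588. Exon bases shared with *ACTA2*, the smooth muscle actin gene on the opposite strand, made up 8.93% of the *FAS* model, and *ACTA2* rose by 1.995 on the log2 scale (SE 0.197, edgeR adjusted p = 5.72e-06). Whether reads were counted by strand is not stated, so reads from the shared bases cannot be told apart.

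*TNFRSF10B* (ENSG00000120889, chromosome 8 from 23020133 to 23069179, minus strand) encodes DR5, a TRAIL receptor with a death domain. It was the most abundant of the 10 genes per kb of gene length, above 95.3% of genes tested with DMSO and above 98.4% with TH588. The level was 249.3, 257.6 and 240.7 CPM with DMSO and 616.5, 567.0 and 543.3 CPM with TH588 in replicates A, B and C. The groups were far apart, and the lowest TH588 library was above the highest DMSO library. The mean rose from 249.2 ± 8.48 to 575.6 ± 37.4 CPM (SD, n = 3 per group), with a log2 fold change of 1.21 (SE 0.08, 95% interval 1.03 to 1.38, edgeR adjusted p = 2.89e-07), or 2.31-fold. The *TNFRSF10B* window held 1 match to the p53 motif with 2 mismatches, from 23068622 to 23068641 in intron 1 of its canonical transcript, and the windows of the 8 genes other than *FAS* and *TNFRSF10B* held 0.

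*TNFRSF10A* (ENSG00000104689, chromosome 8 from 23190452 to 23225126, minus strand) encodes DR4, the other TRAIL receptor with a death domain. It had 0 counts in 5 libraries and 3 counts in TH588 replicate B. A count of 0 allows up to 0.0365, 0.0364 and 0.0320 CPM in DMSO replicates A, B and C, for counting error only. DR4 transcripts were therefore near or under the limit of detection in both groups, and no fold change is given.

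The decoy receptor genes lie between *TNFRSF10B* and *TNFRSF10A*. *TNFRSF10D* (ENSG00000173530, chromosome 8 from 23135588 to 23164030, minus strand) encodes DcR2, which has a shortened death domain. Its level was 23.8, 27.3 and 25.7 CPM with DMSO and 61.7, 57.3 and 57.6 CPM with TH588, so that the groups were well separated. The mean rose from 25.6 ± 1.77 to 58.9 ± 2.48 CPM (SD, n = 3 per group), with a log2 fold change of 1.20 (SE 0.08, 95% interval 1.02 to 1.38, edgeR adjusted p = 4.13e-07), or 2.30-fold. *TNFRSF10C* (ENSG00000173535, chromosome 8 from 23102590 to 23117437, plus strand) encodes DcR1, which is held at the cell surface by a lipid anchor and has no death domain. It was rare, at 0.864, 1.02 and 1.22 CPM with DMSO and 1.64, 2.93 and 2.25 CPM with TH588. The lowest TH588 library, replicate A, was only a little above the highest DMSO library. The log2 fold change was 1.17 (SE 0.24, 95% interval 0.64 to 1.69, edgeR adjusted p = 0.00156), or 2.25-fold. Of its exon bases, 39.3% are shared with 2 unnamed genes on the same strand, one of which (ENSG00000284948) had a log2 fold change of 0.48 (SE 0.38) and was not called (edgeR adjusted p = 0.321). The *TNFRSF10C* value is uncertain, since how reads in the shared bases were counted is not stated.

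Because several TRAIL receptors compete for 1 ligand, their levels were set against each other per kb of gene length. The summed level of the TRAIL receptor genes was 56.1 ± 1.88 CPM per kb with DMSO and 129.4 ± 7.67 CPM per kb with TH588 (SD, n = 3 each). The decoys *TNFRSF10C* and *TNFRSF10D* together made up 12.94%, 14.19% and 14.52% of that sum in DMSO replicates A, B and C. With TH588 they made up 13.29%, 13.91% and 14.24%. The decoy share thus overlapped fully between the groups, at 13.9% ± 0.84 with DMSO and 13.8% ± 0.48 with TH588 (SD, n = 3 each), while the sum did not. *TNFRSF10B* alone made up 86.1% ± 0.84 and 86.2% ± 0.48. These shares are a description and were not tested. In GENCODE transcripts, 0 of the 50-base stretches of any TRAIL receptor gene occur in another TRAIL receptor gene, so exact 50-base matches do not pass between them.

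**Figure D2:**
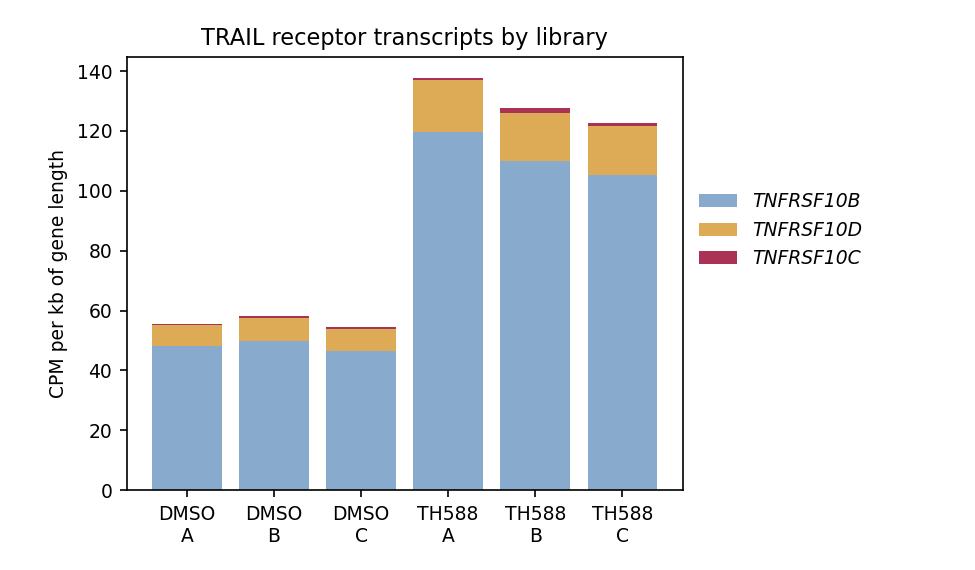
Stacked bars give the level of *TNFRSF10B*, *TNFRSF10D* and *TNFRSF10C* in CPM per kb of gene length (vertical) in each of the 6 libraries (horizontal), with *TNFRSF10A* left out because it was near 0. The bars are taller with TH588 while *TNFRSF10B* makes up 85.5% to 87.1% of every bar.

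The TRAIL receptor genes lie in 1 cluster on chromosome 8, with the starts of *TNFRSF10C*, *TNFRSF10D* and *TNFRSF10A* 33.4, 94.9 and 155.9 kb from that of *TNFRSF10B*. Within 200 kb of the cluster there were 23 genes, 9 of which were tested. Of these 9, 5 were called higher, the 3 receptor genes among them, and 2 lower. The neighbour *RHOBTB2*, whose end overlaps 1.30% of the *TNFRSF10B* exon bases on the opposite strand, fell by 0.82 on the log2 scale (SE 0.12, edgeR adjusted p = 0.000137). *R3HCC1* fell by 0.69 (SE 0.14, edgeR adjusted p = 0.00139). *LOXL2*, which encodes a lysyl oxidase, rose by 0.36 (edgeR adjusted p = 0.0255) and *ENTPD4* by 0.25 (edgeR adjusted p = 0.0321) on the same scale. *CHMP7*, which lies beside *TNFRSF10A*, had a log2 fold change of -0.05 (SE 0.09, edgeR adjusted p = 0.688). By point estimate, the rises of the receptor genes were each larger than that of any other gene tested in the cluster's surroundings. The next largest, in ENSG00000284948, was poorly fixed, at 0.48 on the log2 scale (SE 0.38, edgeR adjusted p = 0.321). That gene shares exon bases with *TNFRSF10C*.

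**Figure D3:**
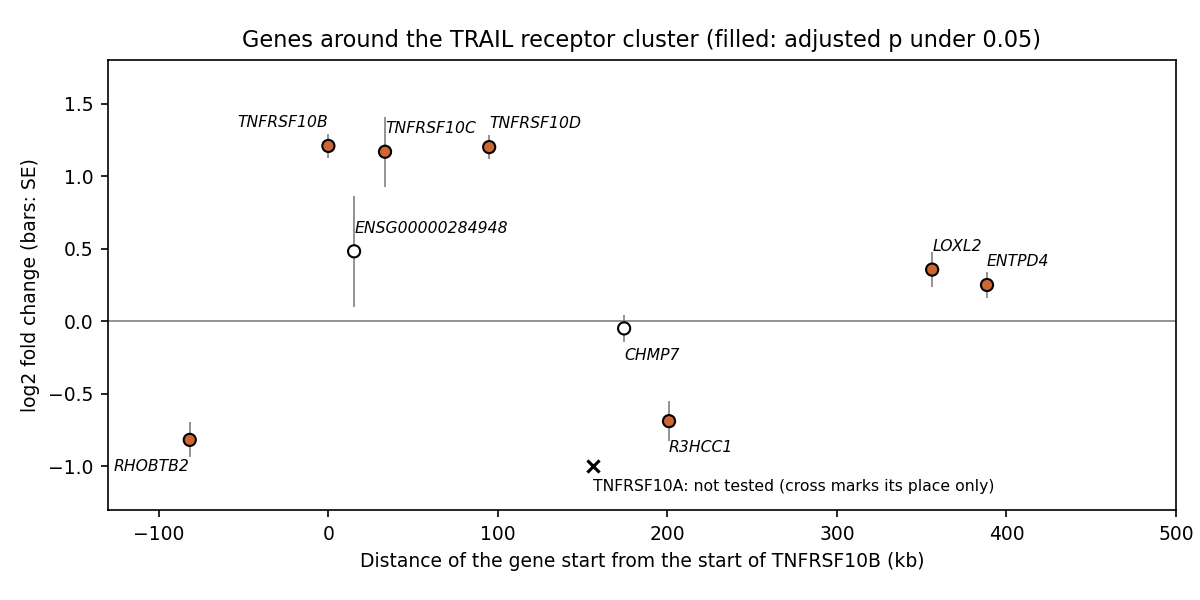
Log2 fold change with its SE (vertical) of the 9 tested genes within 200 kb of the TRAIL receptor cluster, placed by the distance in kb of each gene start from that of *TNFRSF10B* (horizontal), with filled points for genes called. The receptor genes sit between 1.17 and 1.21, and the neighbours between -0.82 and 0.48.

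*TNFRSF1A* (ENSG00000067182, chromosome 12 from 6328757 to 6342114, minus strand) encodes TNFR1, the main receptor for TNF. The level was 38.5, 33.3 and 39.4 CPM with DMSO and 37.0, 35.7 and 31.6 CPM with TH588. The libraries of both groups lay in 1 range. The log2 fold change was -0.10 (SE 0.10, 95% interval -0.30 to 0.11, edgeR adjusted p = 0.439), and it was 0.01 when only library size was scaled. Per kb of gene length, *TNFRSF1A* stood at 19.2% ± 2.28 of the *TNFRSF10B* level with DMSO and at 7.78% ± 0.31 with TH588 (SD, n = 3 each). By the same measure *FAS* went from 1.56% ± 0.09 to 3.46% ± 0.44 of the *TNFRSF10B* level. With DMSO the receptors were thus in the order *TNFRSF10B*, *TNFRSF1A*, *TNFRSF10D*, *FAS* and *TNFRSF10C*, at 48.3, 9.25, 7.24, 0.754 and 0.553 CPM per kb. With TH588 the order was *TNFRSF10B*, *TNFRSF10D*, *TNFRSF1A*, *FAS* and *TNFRSF10C*, at 111.6, 16.6, 8.68, 3.85 and 1.22 CPM per kb. In either order, the libraries of 1 gene did not overlap with those of the next. *TNFRSF10C* was divided by its full gene model, of which 39.3% of exon bases are shared with other genes. Its place below *FAS* with DMSO is therefore uncertain, as reads in shared bases may have gone uncounted.

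Both ligands were close to the limit of detection. *TNFSF10* (ENSG00000121858, chromosome 3 from 172505508 to 172523507, minus strand) encodes TRAIL and had 26, 16 and 16 counts with DMSO and 6, 21 and 28 counts with TH588. The range of each group covered most of the other. Its level was 0.227 ± 0.078 CPM with DMSO and 0.251 ± 0.075 CPM with TH588 (n = 3 per group, SD), and the log2 fold change of 0.16 had a 95% interval from -0.87 to 1.19 (SE 0.47, edgeR adjusted p = 0.804). That interval includes no change, a 2-fold rise and a fall of 0.87 on the log2 scale, so the depth does not settle a direction. *FASLG* (ENSG00000117560, chromosome 1 from 172659018 to 172666874, plus strand) encodes FAS ligand, which is made mainly by T and NK cells. It had 0 counts in the 3 DMSO libraries and in TH588 replicate A, and 1 count each in TH588 replicates B and C. Of 6 T and NK cell markers, *CD3E* and *GZMB* were at 0 in all libraries. The others, *CD8A*, *PRF1*, *PTPRC* and *NKG7*, had counts, at most 30, 26, 10 and 9 in any library. The sum of all 6 was 0.279 to 0.523 CPM with DMSO and 0.479 to 0.747 CPM with TH588. The sum of 3 myeloid markers was 0.219 to 0.521 CPM with DMSO and 0.673 to 0.781 CPM with TH588. Of these, *CD14* averaged 0.065 CPM with DMSO and 0.336 CPM with TH588, without overlap, on at most 35 counts in any library. *CSF1R* and *LYZ* overlapped between the groups. The sum of 3 fibroblast markers was 12.9 to 14.3 and 12.2 to 14.1 CPM, and the part of these markers in the results was not tested.

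*FADD* (ENSG00000168040, chromosome 11 from 70203163 to 70207390, plus strand) encodes the adaptor that joins FAS and the TRAIL receptors to caspase-8. The level was 4.30, 3.59 and 3.32 CPM with DMSO and 3.21, 3.92 and 4.35 CPM with TH588, with full overlap of the groups. The log2 fold change was 0.05 (SE 0.16, 95% interval -0.30 to 0.40, edgeR adjusted p = 0.815). An antisense gene that had 0 counts covers 54.9% of its exon bases. Whether reads were counted by strand is not stated. Reads in the shared bases may have gone uncounted, and the level of *FADD* is uncertain to that extent. *CFLAR* (ENSG00000003402, chromosome 2 from 201116104 to 201176687, plus strand) encodes cFLIP. Its level was 11.9, 13.8 and 12.0 CPM with DMSO and 18.4, 19.4 and 20.4 CPM with TH588, so that every TH588 library was above every DMSO library. The mean rose from 12.6 ± 1.06 to 19.4 ± 0.99 CPM (SD, n = 3 per group), with a log2 fold change of 0.63 (SE 0.10, 95% interval 0.40 to 0.86, edgeR adjusted p = 0.000335), or 1.55-fold. The interval of *CFLAR* lay below those of *FAS*, *TNFRSF10B* and *TNFRSF10D*, and overlapped that of *TNFRSF10C*.

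**Figure D4:**
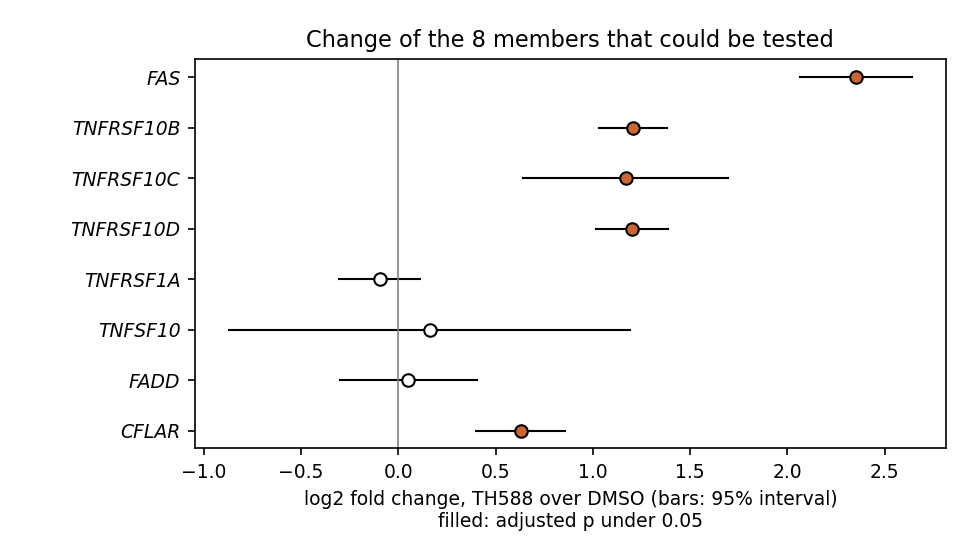
Log2 fold change of TH588 over DMSO (horizontal) of the 8 genes tested (vertical), with bars for the 95% interval and filled points for genes called. The intervals of *FAS*, the 3 TRAIL receptors tested and *CFLAR* lie above 0, and those of *TNFRSF1A*, *TNFSF10* and *FADD* include 0.

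The genes whose pattern over the 6 libraries was most like that of *FAS*, by the root mean square difference of centred log2 CPM among 9750 genes of at least moderate abundance, were *PROCR* (0.0954), *CYFIP2* (0.115) and *PLXDC1* (0.127). *PROCR*, the endothelial protein C receptor gene, had a log2 fold change of 2.41. For *TNFRSF10B* the nearest were *EZH1* (0.0355), *ZSWIM8* (0.0439) and *GPR108* (0.0563). *EZH1* encodes a histone methyltransferase and had a log2 fold change of 1.18. These genes were named by likeness in the same libraries, and no test was made of it.

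Around these genes, 64 others of the pathway were counted in 6 lists. Of these, 45 passed the filter, 17 were called higher and 13 lower, so that 66.7% were called, against 49.6% of all genes tested. The lists were chosen with earlier results of these data known, so the difference between these shares is a description only. The median of the 45 on the log2 fold change scale was -0.06, beside 0.02 over all genes tested. The 10 named genes are not in these lists.

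Among 8 other TNF receptor superfamily genes, 5 were tested, 2 were called higher and 1 lower. *EDA2R*, the receptor for an ectodysplasin isoform, was at 1.48, 1.62 and 1.62 CPM with DMSO and at 12.7, 9.62 and 10.5 CPM with TH588. It rose by 2.78 on the log2 scale (SE 0.15, edgeR adjusted p = 5.76e-08). *TNFRSF25*, which encodes the death receptor DR3, rose from 1.15 ± 0.19 to 2.19 ± 0.18 CPM (SD, n = 3 per group), with a log2 fold change of 0.92 (SE 0.20, edgeR adjusted p = 0.0026). *TNFRSF21*, which encodes DR6, went the other way, from 11.8 ± 0.37 to 5.89 ± 1.10 CPM (SD, n = 3 each), and fell by 0.98 on the log2 scale (SE 0.14, edgeR adjusted p = 9e-05). *TNFRSF6B*, the soluble decoy for FAS ligand, had 0 counts in all libraries. Of 6 other ligand genes, 0 were tested, and *TNF*, *TNFSF14* and *TNFSF15* had 0 counts in all libraries.

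In the death complex and its regulators, 12 of 14 genes were tested, with 5 called higher and 4 lower. *CASP8*, the initiator caspase recruited by FADD, was at 32.7, 33.1 and 34.4 CPM with DMSO and at 41.2, 47.6 and 50.7 CPM with TH588. It rose by 0.48 on the log2 scale (SE 0.09, edgeR adjusted p = 0.000847). Per kb of gene length, the ratio of *CASP8* to *CFLAR* was 8.30 ± 0.76 with DMSO and 7.43 ± 0.42 with TH588, and that of *FADD* to *CFLAR* was 3.66 ± 0.65 and 2.40 ± 0.24 (SD, n = 3 each). The groups overlapped for the ratio of *CASP8* to *CFLAR* and did not overlap for that of *FADD* to *CFLAR*, and neither was tested. Both ratios rest on the *CFLAR* model of 22529 bases, which is far longer than a typical transcript, so their absolute size cannot be read. The *FADD* ratio is uncertain also because reads in the 54.9% of *FADD* exon bases shared with an antisense gene may have gone uncounted. *CASP10*, the close relative of *CASP8* beside it on chromosome 2, had 0, 0 and 2 counts with DMSO and 20, 26 and 17 counts with TH588. The ratio of its summed levels was 37.2, with an interval of 9.87 to 313.0 (95%) that covers counting error only, and it was called higher (edgeR adjusted p = 0.000861). The size of this ratio is poorly fixed, since both DMSO counts came from replicate C and the TH588 levels were uneven, at 0.747, 0.239 and 0.204 CPM in replicates A, B and C. Without DMSO replicate C, *CASP10* was at least 15.8-fold higher, against a floor of 3 counts over the remaining DMSO libraries, and without TH588 replicate A the ratio was 28.9. The call held without either library (edgeR adjusted p = 0.00173 and 0.00344). *CASP10* passed the filter only through its TH588 counts, so these p-values add no independent support. Where at least 10 counts were required in every library it had no value, and 4 genes of the list were called higher. *CFLAR*, *CASP10* and *CASP8* stand side by side on chromosome 2, and all 3 were called higher.

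Other members of that list moved in both directions. *TRADD*, the adaptor of TNFR1, rose from 3.03 ± 0.76 to 6.18 ± 1.50 CPM (SD, n = 3 per group), with a log2 fold change of 1.01 (SE 0.21, edgeR adjusted p = 0.00188). *DEDD2*, a death effector domain gene, rose by 0.85 on the log2 scale (edgeR adjusted p = 0.000348). *FAF1*, which encodes a FAS-associated factor, fell from 159.9 ± 3.15 to 96.1 ± 3.47 CPM (SD, n = 3 per group), with a log2 fold change of -0.73 (SE 0.07, edgeR adjusted p = 6.57e-06). *CASP8AP2*, which encodes FLASH, fell by 0.73 on the log2 scale (edgeR adjusted p = 4.03e-05). *BID*, the substrate through which caspase-8 reaches mitochondria, fell by 0.54 (SE 0.14, edgeR adjusted p = 0.00706). The fourth gene called lower, *DAXX*, fell by 0.31 (edgeR adjusted p = 0.0423), with overlap of the groups. Its call was lost with library size only (edgeR adjusted p = 0.321) and with the replicate letter as a block (0.0705). It was also lost without DMSO replicate A or C or TH588 replicate A or C (0.135 to 0.196). The kinase gene *RIPK1* had a log2 fold change of -0.19 (SE 0.10, 95% interval -0.40 to 0.03) and was not called (edgeR adjusted p = 0.134). *RIPK3* and *MLKL*, needed for necroptosis, were not tested and averaged at most 0.00706 CPM in either group.

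The ubiquitin layer of TNF receptor signaling had 10 of 12 genes tested, 4 called higher and 1 lower. *TNFAIP3*, which encodes the deubiquitinase A20, rose from 0.811 ± 0.029 to 2.16 ± 0.257 CPM (SD, n = 3 per group), or 2.64-fold (edgeR adjusted p = 0.000134). *TRAF5* rose by 0.45 and *BIRC2*, which encodes cIAP1, by 0.37 on the log2 scale (edgeR adjusted p = 0.00175 and 0.00385). *OTULIN*, the 1 gene called lower, had a log2 fold change of -0.35 (edgeR adjusted p = 0.0227). Its adjusted p was 0.0646 without DMSO replicate A, 0.0671 without DMSO replicate B, 0.0777 without TH588 replicate B and 0.0604 without TH588 replicate C, so that 0 genes were called lower there.

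Of 17 NF-kB pathway and target genes, 12 were tested, 5 were called higher and 3 lower. *ICAM1*, an adhesion molecule gene induced by NF-kB, rose from 0.202 ± 0.073 to 0.681 ± 0.112 CPM (SD, n = 3 per group), with a log2 fold change of 1.73 (SE 0.39, edgeR adjusted p = 0.00299). *RELB* and *NFKB2*, partners of the alternative NF-kB pathway, rose by 1.17 and 0.98 on the log2 scale (edgeR adjusted p = 2.66e-05 and 1.96e-06). *CHUK*, the kinase gene of that pathway, fell by 0.82 (edgeR adjusted p = 4.76e-06). *NFKBIA*, which encodes an inhibitor of NF-kB, fell by 0.53, and *NFKB1* by 0.26 (edgeR adjusted p = 0.00109 and 0.0156). *CXCL1* and *CCL2* had 0 counts in all libraries. The other genes called higher, *IKBKB* and *TAB1*, both lost their call without DMSO replicate B, DMSO replicate C or TH588 replicate B, which left 3 called higher. The call of *NFKB1* was lost without any 1 of the DMSO libraries (edgeR adjusted p 0.0511 to 0.0945) and with library size only (0.29).

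Of 7 trafficking and glycosylation genes tied to TRAIL or FAS sensitivity, 6 were tested, 1 was called higher and 4 lower. *GALNT14*, which encodes an enzyme that adds O-linked sugars to proteins, was at 3.05, 3.62 and 3.66 CPM with DMSO and at 1.31, 1.31 and 0.827 CPM with TH588. It fell by 1.61 on the log2 scale (SE 0.21, edgeR adjusted p = 5.1e-05), with no overlap of the groups. *SRP72*, of the signal recognition particle, fell by 0.67 (edgeR adjusted p = 1.68e-05), and *EZR*, which encodes the membrane linker ezrin, by 0.51 (edgeR adjusted p = 0.00279). *MARCHF8*, which encodes a ubiquitin ligase of membrane proteins, rose by 0.64 (SE 0.16, edgeR adjusted p = 0.00643). The fourth gene called lower, *CUL3*, had a log2 fold change of -0.25 (edgeR adjusted p = 0.0288), and its call was lost with library size only (0.183) and without DMSO replicate A or C or TH588 replicate B or C (0.0779 to 0.175).

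**Figure D5:**
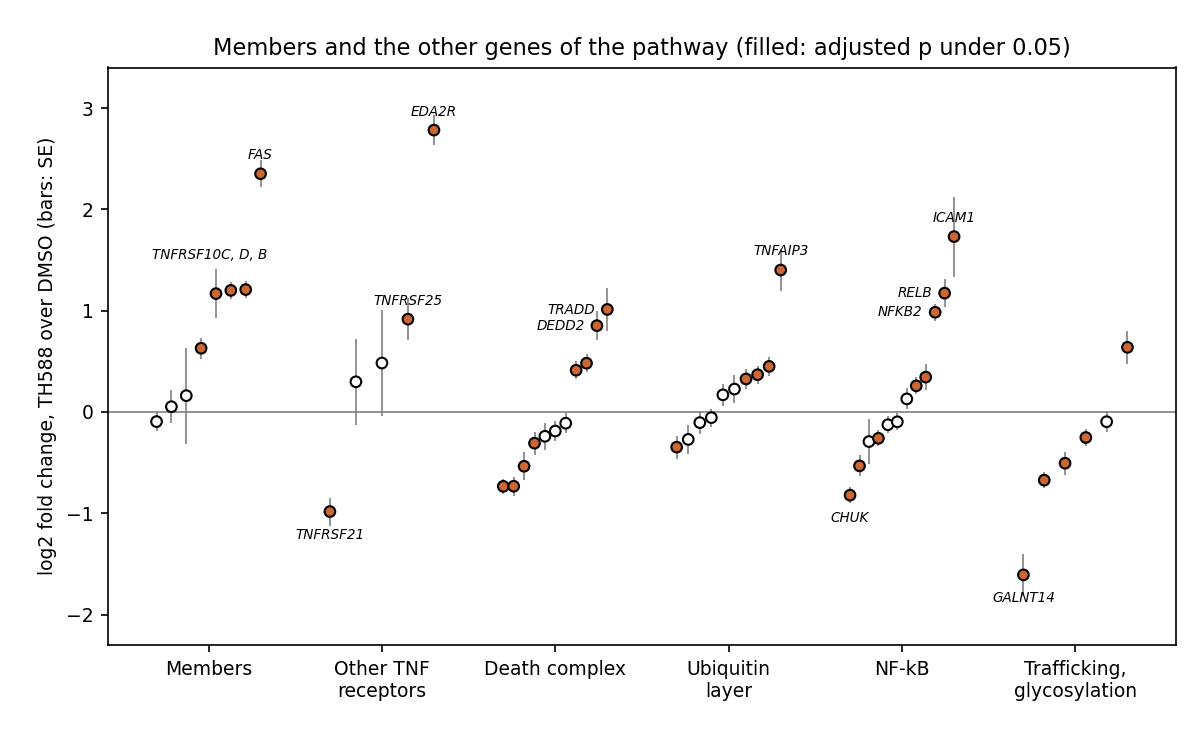
Log2 fold change with its SE (vertical) of the 8 tested genes of the death receptor set, shown as Members, and of the tested genes of 5 pathway lists (horizontal), with filled points for genes called. *CASP10* is left out because its DMSO level rests on 2 counts, and *FAS* (2.35) and *EDA2R* (2.78) stand highest among the genes shown.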

How the data were processed

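RNA from A2780 cells (3 DMSO and 3 TH588 libraries) was made into libraries with a TruSeq RNA kit v2. Per the labels, TopHat aligned the reads to GRCh38 and featureCounts 1.4.6 (Subread) made the gene counts. The authors deposited raw counts, with gene lengths from the counting tool, for 58336 genes. UCSC gene models are named in the methods, but the identifiers in the table are from Ensembl, and the settings for strand and shared reads are not given in the sources used here.

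Counts were compared with edgeR 4.0.16 in R 4.3.3 (TMM, filterByExpr, quasi-likelihood test, Benjamini-Hochberg adjustment over 15844 genes, design with group only). SE is the log2 fold change over the square root of F. Levels between genes are CPM per kb of the table's gene length. Floors are 3 counts and cover counting error only. The procedure was tested on simulated counts. Symbols were matched by Ensembl identifier, for 57754 genes. The p53 motif was searched in hg38, and exons and transcripts came from GENCODE.

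The 10 genes and the pathway and marker lists were chosen with earlier results of these data known. In each list, up to 3 called genes with the largest rise and up to 3 with the largest fall were named, with any gene at 0 counts throughout, and *CASP8*, *CASP10*, *RIPK1*, *TRADD* and *TNF*. *KRT7*, *KRT18*, *CDH1*, *PAX8*, *EPCAM*, *CD8A*, *PRF1*, *PTPRC*, *NKG7*, *CD14*, *CSF1R*, *LYZ*, *RIPK3*, *MLKL*, *DAXX*, *IKBKB*, *TAB1* and *CUL3* were named after their values were seen. Neighbours within 200 kb of the TRAIL receptors and 3 genes most like *FAS* and *TNFRSF10B* were named too. Alternatives were DESeq2 1.42.0 and limma-voom (limma 3.58.1) as tests, scaling by DESeq2's size factors or by library size only, a filter of at least 10 counts in every library or none, the replicate letter as a block, each library left out, *SNORD3A* left out and an adjusted p under 0.01. Replicates of a group differed by more than sampling noise (chi-square per degree of freedom 24.97 to 176.0) and each was counted once. These values came from raw counts scaled by total counts only, with *SNORD3A* kept, so they also hold differences in library make-up.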

Additional observations from a re-analysis of the deposited data

How the results depend on the processing

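The 5 death receptor genes called higher were also called under every alternative run, and 0 were called lower. Of 119 alternative values of the 8 tested genes, 115 kept their direction and their side of the threshold, and 4 changed sign, all in genes that were not called: *TNFRSF1A* with library size only (0.006 on the log2 scale), *TNFSF10* without TH588 replicate C (-0.12), and *FADD* without DMSO replicate C (-0.01) or TH588 replicate C (-0.029). The cause was not tested. The 119 values include those under an adjusted p of 0.01, which reuse the main fit, so their direction could not change. The log2 fold change ranged from 2.31 to 2.45 for *FAS*, 1.17 to 1.30 for *TNFRSF10B*, 0.94 to 1.34 for *TNFRSF10C*, 1.17 to 1.30 for *TNFRSF10D* and 0.61 to 0.74 for *CFLAR* over these alternatives. With each library left out in turn it ranged from -0.12 to 0.49 for *TNFSF10*, -0.03 to 0.18 for *FADD* and -0.17 to -0.01 for *TNFRSF1A*. *TNFSF10* had no value where 10 counts were required in every library. Of the list counts, 5 NF-kB genes called higher became 3 with the replicate block and under an adjusted p of 0.01, and 1 ubiquitin gene called lower became 0 there and with library size only. Libraries with the same replicate letter were not treated as paired, and their deviations from the group means correlated at -0.336, -0.323 and -0.045. These correlations cannot decide whether a letter marks a shared experiment, since differences between libraries in depth and make-up enter them too. With the letter as a block, 7195 genes were called, 7129 of them among the 7852 called without it, and 5 death receptor genes were still higher. Low counts limit *TNFRSF10A*, *FASLG* and *TNFSF10* most. For *TNFSF10* the SE was 0.473, and it was 0.549 without TH588 replicate A, the shallowest library.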
